A study of Mus musculus with 2 samples.

Results

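The miRNA hairpins in an intron of the mouse gene Sfmbt2 were examined in heart small RNA. Members were all GENCODE M21 genes of type miRNA on the plus strand of chromosome 2 that lie wholly between mm10 positions 10370000 and 10600000, which gave 119 of the 2202 miRNA genes counted. The choice used position and strand only, and no count. Of the members, 71 carry a name of the Mir297, Mir466, Mir467 or Mir669 series and 48 carry a provisional Gm name.

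Sfmbt2 encodes a Polycomb group protein that the placental trophoblast needs, and the hairpins in its intron are transcribed with it. The cluster is found in mice and rats and not in most other mammals, and it is an imprinted locus whose paternal allele is active in the placenta and the early embryo. Its members arose by tandem duplication and are rich in alternating UG and CA letters. In the heart, miR-669a is known from work on cardiac progenitor cells, where it represses the skeletal muscle regulator MyoD.

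The tissue was heart from male 5xFAD/CAST mice, adults of 8 to 10 months. 5xFAD is a transgenic mouse line in which neuronal promoter elements drive the transgenes, and CAST is a wild-derived inbred strain. There was 1 group with 2 libraries, replicates 1 and 2, so no condition could be compared with another. The labels list separate biosamples under a single donor entry and do not state that the animals were separate, so spreads and p-values measure only the difference between these libraries.

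The libraries held 3889280 and 5058613 sense counts. Another 4576006 and 6650307 reads, 42.3% and 46.8% of each table, had aligned to several places and were given to no gene. Cardiomyocyte markers (Mir208a, Mir208b, Mir499) were detected 3 of 3, at a summed 6731 and 7430 CPM (sense counts scaled to a library total of 1000000). The endothelial marker Mir126a was higher, at 87115 and 87787 CPM. All 3 erythroid markers, at a summed 1654 and 1243 CPM, and all 4 leukocyte markers, at 6830 and 5000 CPM, were detected too. The Mir290 to Mir295 genes of embryonic stem cells and trophoblast, cells in which the Sfmbt2 cluster is also known, summed to 1 and 8 counts. The wider pluripotent or trophoblast list, of which 13 of 14 entries matched and 4 were detected, summed to 210 and 1033 CPM, nearly all from Mir302 genes, and 7 of its genes were at 0 in both libraries.

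The 119 members span 53.0 kb, from 10465287 to 10518279 of mm10, and every one lies inside a single intron of Sfmbt2 (ENSMUSG00000061186.15, 10370510 to 10595253, plus strand). That intron runs from 10461473 to 10523944 and is counted as intron 10 or intron 11 in the 2 annotated transcripts that hold it. Hairpins of 73 to 127 bases follow each other with a median gap of 206 bases. The letters TGTGTG or ACACAC, searched on both strands of each annotated hairpin, occurred in 116 of the 119 (97.5%), against 476 of all 2202 hairpins (21.6%). A long run of CA letters can hold both of these, since TGTGTG reads CACACA on the other strand.

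To show what sequences of these series look like, mature miRNAs of same-named hairpins on other chromosomes are given from RefSeq (GRCm38.p6). Of the members 0, and of the 10 same-named hairpins elsewhere 8, matched a mature entry by symbol. Capitals mark the seed, bases 2 to 8 from the 5′ end, which pairs with target mRNAs. All 8 have different seeds, and each holds a stretch of alternating U and G or C and A letters:
miR-466i-3p: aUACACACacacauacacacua
miR-466j: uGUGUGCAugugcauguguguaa
miR-466k: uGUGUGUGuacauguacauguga
miR-466q: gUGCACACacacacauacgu
miR-467f: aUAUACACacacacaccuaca
miR-467g: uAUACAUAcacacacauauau
miR-467h: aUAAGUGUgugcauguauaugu
miR-669n: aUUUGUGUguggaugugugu

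On GRCm38.p6 their places and strands are miR-466i-3p at chr13:17747552-17747573 (plus), miR-466j at chr10:60960802-60960824 (plus), miR-466k at chr3:85467396-85467418 (plus), miR-466q at chr3:28419988-28420007 (plus), miR-467f at chr11:69635419-69635439 (minus), miR-467g at chr5:34732872-34732892 (minus), miR-467h at chr9:115381898-115381919 (plus) and miR-669n at chr3:115979905-115979924 (plus). None of these 8 mature sequences occurs whole in any of the 119 member hairpins, while their seed letters do, on the sense strand. The seed letters of miR-467g occur in 78 members, those of miR-466j in 62, of miR-466i-3p in 60 and of miR-466k in 50. Those of miR-466q occur in 30, of miR-467f in 27, of miR-669n in 10 and of miR-467h in 1. Members matched no mature entry, so the letters were not placed at a seed position and do not show shared seeds. Their share over all hairpins is not given. All 10 same-named hairpins elsewhere, Mir297-1, Mir466f-4, Mir466i, Mir466j, Mir466k, Mir466q, Mir467f, Mir467g, Mir467h and Mir669n, had 0 counts in both libraries. A count of 0 was taken to allow up to 3 counts, or 0.771 CPM in replicate 1 and 0.593 CPM in replicate 2. This is a fixed limit and not an exact interval, and like all intervals here it covers counting error of uniquely aligned reads only.

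In heart, 12 of the 119 members had any count, and a single hairpin, Mir467d, held most of the cluster's uniquely aligned reads. The cluster held 3765 counts in replicate 1 and 4125 in replicate 2. These were 0.0968% of sense counts (95% Clopper-Pearson interval 0.0937 to 0.0999) and 0.0815% (0.0791 to 0.0841), a mean of 0.0892% ± 0.0108 (SD, n = 2). Detected members, those with at least 10 counts in both libraries, were 6 of 119 (5.04%), against 325 of 2202 miRNA genes (14.8%). Of the 119, 107 (89.9%) had 0 counts in both libraries, as did 1490 of all genes (67.7%), and the median level was 0 CPM in both sets. These shares count uniquely aligned reads only and by themselves do not show a low level, nor which hairpin or series leads. No 20-base stretch absent from every annotated hairpin at another place was found in 45.4% of members, against 13.7% of all genes. Where at least 50% of stretches were so absent, 36.0% of members and 44.8% of genes were counted, and 20.0% and 20.9% detected.

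**Figure D1:**
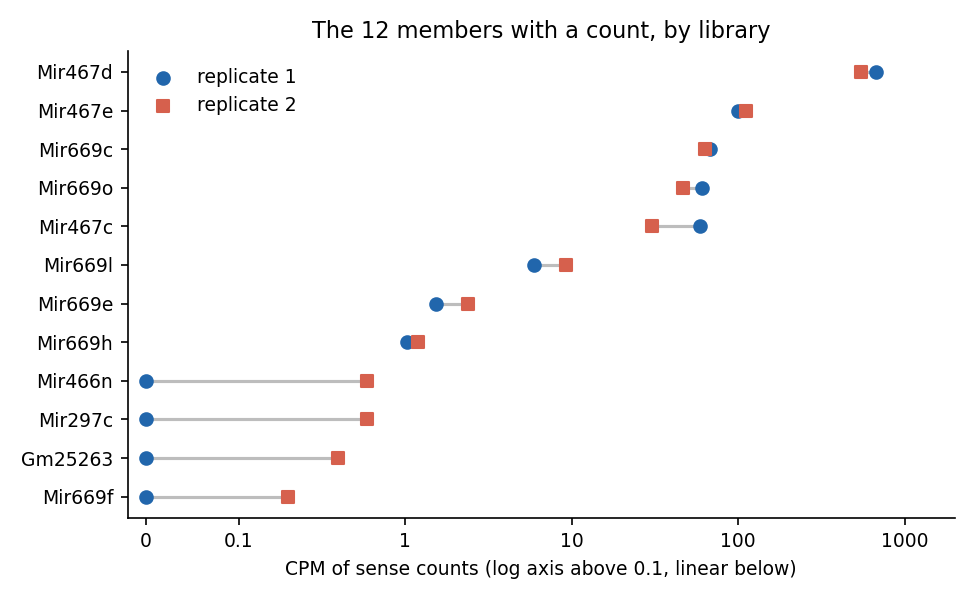
Level of the 12 members with a count, in CPM of sense counts on an axis that is logarithmic above 0.1 and linear below, with circles for replicate 1, squares for replicate 2 and a line joining them. Mir467d stands alone at a mean of 611 CPM, 5 members lie between 7.60 and 105 CPM on average, and 4 members have a count in replicate 2 only.

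The Mir467 series led the cluster in counts of uniquely aligned reads. Its 14 members held 85.8% of the cluster's counts in replicate 1 and 84.7% in replicate 2, from 3 hairpins, Mir467d, Mir467e and Mir467c. The remaining 11, Mir467a-1 to Mir467a-10 and Mir467b, had 0 counts. None of the 10 Mir467a copies has a 20-base stretch that is absent from every other annotated hairpin, and Mir467b has 20.4% of such stretches. In counts of uniquely aligned reads these zeros therefore do not show whether miR-467a or miR-467b was present. miR-467b is known as a repressor of lipoprotein lipase in macrophages.

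Mir467d (ENSMUSG00000077021.2, 10507630 to 10507714) had 2611 counts in replicate 1 and 2782 in replicate 2. Its level was 671 and 550 CPM, a mean of 611 ± 85.8 CPM (SD, n = 2). It ranked 75th by mean among the 325 detected genes, above 76.9% of them, and held 69.3% and 67.4% of the cluster's counts. The values of Mir467d in both libraries exceeded those of every other member.

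Mir467e (10505721 to 10505807), whose hairpin is 92.0% identical to that of Mir467d, had 390 and 559 counts. This gave 100 and 111 CPM, a mean of 105 ± 7.23 CPM, the second level of the cluster. The count of Mir467d exceeded that of Mir467e 6.69-fold in replicate 1 (95% exact interval 6.02 to 7.47) and 4.98-fold in replicate 2 (4.54 to 5.46), a mean of 5.84 ± 1.21. The intervals do not meet, so the libraries differ in this ratio by more than counting error.

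Mir467c (10473931 to 10474027) had 229 and 154 counts, or 58.9 and 30.4 CPM, with a mean of 44.7 ± 20.1 CPM. Its spread between the libraries was the widest, relative to the mean, of the 6 detected members. Its longest stretch in common with another hairpin is 48 bases, shared with Mir467e.

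The Mir669 series, with 29 members, held 14.2% and 15.1% of the cluster's counts from 6 hairpins, of which 3 were detected. Mir669c (10509296 to 10509404) had 265 and 321 counts, at 68.1 and 63.5 CPM (mean 65.8 ± 3.31). Mir669o (10514300 to 10514395) had 237 and 235 counts, at 60.9 and 46.5 CPM (mean 53.7 ± 10.2). Mir669o was above Mir467c in each library, at 60.9 against 58.9 and 46.5 against 30.4 CPM, but their ranges over the libraries overlap. The difference between these neighbours in the order of levels was not tested. For Mir467d, Mir467e and Mir669c, both values exceeded both values of the next member.

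Mir669l (10468971 to 10469068) was the lowest detected member, with 23 and 47 counts and 7.60 ± 2.39 CPM. Mir669e followed with 6 and 12 counts, just under the detection minimum in replicate 1, and Mir669h with 4 and 6. Mir669f had 0 and 1 count. All 12 copies of Mir669a were at 0 in both libraries. Of these, 11 have no 20-base stretch that is absent from every other annotated hairpin, and Mir669a-3 has 28.9% of such stretches, so in counts of uniquely aligned reads these zeros do not show whether miR-669a was present.

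The Mir297 and Mir466 series were nearly without counts of uniquely aligned reads. Of 5 Mir297 members only Mir297c had any, with 0 in replicate 1 and 3 in replicate 2, and of 23 Mir466 members only Mir466n, also with 0 and 3. Among the 48 Gm members Gm25263 alone was counted, with 0 and 2. These values lie at or under the limit that a count of 0 allows, so no difference between the libraries could be read from them. Stretches absent from every other annotated hairpin, of the length used above, were lacking in 9 of 23 Mir466 and 22 of 48 Gm members. Their median percent was 25.3% for Mir297, 29.9% for Mir466 and 11.1% for Gm members. The highest was 46.7% for Mir297 and 100% for Mir466 and Gm. In counts of uniquely aligned reads these low counts do not show whether the series as a whole were absent.

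CPM was not divided by hairpin length. Divided by it, Mir467d stood at 718 and Mir467e at 121 CPM per 100 bases, and all 6 detected members kept their place in the order. Members had 0 opposite-strand counts in replicate 1 and 1 in replicate 2, at Mir467d. All 2202 miRNA genes together had 858065 and 1274539, and the 59 hairpins of another imprinted array, the Dlk1-Dio3 region, had 0 and 2. Which genes gave the total over all genes was not examined, so it does not show that the cluster is unusual in strand.

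The counted members lay at both ends of the cluster, and the middle was empty. A run of 72 consecutive members, 30.6 kb long (10474219 to 10504773), had 0 counts throughout. Before it, 4 of 17 members were counted, with 258 and 214 counts in sum, and after it 8 of 30, with 3507 and 3911. This run was picked out after the counts were seen.

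**Figure D2:**
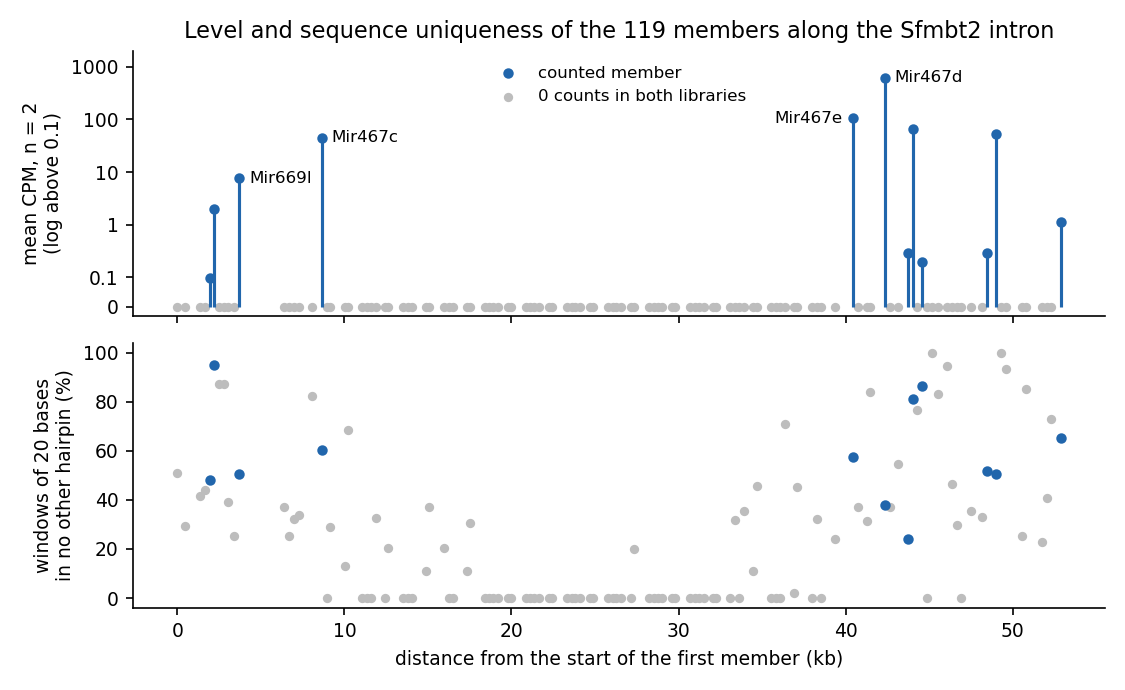
Upper panel, mean CPM of 2 libraries (log axis above 0.1). Lower panel, percent of a hairpin's 20-base windows found in no annotated hairpin at another place. Both are drawn against distance in kb from the start of the first of the 119 members. Blue points are the 12 counted members and grey points the 107 at 0; the central run of 72 members has no count, and most of its points lie at 0% in the lower panel.

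The empty middle is the most repetitive stretch. There, Mir467a-1 to Mir467a-10, Mir467b and Gm25022 recur every 2451 bases in the median (2413 to 2470 bases) with 4 distinct hairpin sequences among the 12. Across the cluster the 119 hairpins have 88 distinct sequences, and 47 members (39.5%) have the same sequence as another hairpin, against 11.1% of all miRNA genes. The largest such groups are the 9 hairpins Mir669a-4 to Mir669a-12 and a group of 7, Mir467a-2, Mir467a-4, Mir467a-5, Mir467a-7, Mir467a-8, Mir467a-9 and Gm25022. All 47 had 0 counts.

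Sequence uniqueness was measured as the percent of a hairpin's 20-base windows that occur in no annotated hairpin at another place, on either strand. Hairpins that overlap it in position were not compared with it. Of the 119 members 54 (45.4%) had no such window, against 301 of 2202 genes (13.7%). All 54 were at 0 counts, and of the 247 other genes without one, 6 had any count. In the central run 52 of 72 members had none, and the median there was 0%, compared with 44.0% before and 51.3% after it.

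Of the 65 members with at least 1 window of their own, 12 (18.5%) were counted and 6 (9.23%) detected. The counted members ranged from 24.1% for Mir297c to 95 of 100 windows for Mir669e. Where at least 50% of windows were their own, 9 of 25 members (36.0%) were counted and 5 (20.0%) detected, beside 44.8% and 20.9% of the 1548 such genes in the whole table. Windows covered the whole hairpin and the mature part was not scored apart, so these classes are not matched for the mature sequence. Over the 119 members the Spearman correlation of mean CPM with this percent was 0.385, a description over hairpins that share sequence and libraries.

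**Figure D3:**
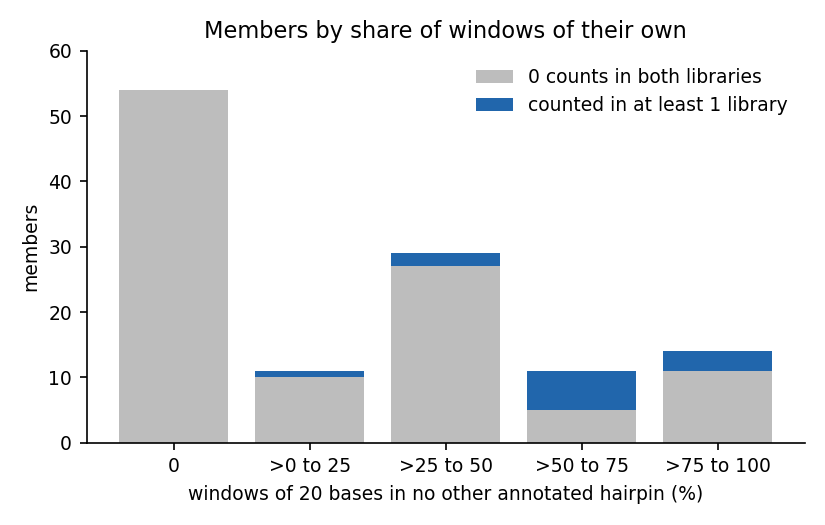
Number of members (vertical axis) by the percent of 20-base windows found in no annotated hairpin at another place. Bars are split into members with 0 counts in both libraries (grey) and members counted in at least 1 (blue). The bar at 0% holds 54 members and no counted one, and the bar from above 50 to 75% holds 6 counted of 11.

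The highest member was not the one with the most windows of its own. Mir467d had 37.9% of such windows (25 of 66), and it shares a 60-base stretch with 10 hairpins, 9 of them Mir467a copies and the tenth Gm25022, each at 0 counts. Mir669o shares 38 bases with 12 hairpins, 11 Mir669a copies and Gm26092, again all at 0. In contrast, Gm22239 and Mir466g had 100% of windows of their own and 0 counts, and Mir466h (93.5%), Mir669b (87.2%) and Mir466l (85.3%) had 0 counts as well. In all, 16 members with 0 counts had at least 50% of windows of their own. The part that reads aligned to several places play in the zeros was not tested.

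The Dlk1-Dio3 region on chromosome 12, another long imprinted array of miRNA hairpins, was set beside the cluster. There 28 of 59 hairpins were detected (47.5%), with 0.150% ± 0.0100 of sense counts, and 1 of 59 had no window of its own. Among hairpins with at least 50% of windows of their own, 47 of 58 there (81.0%) were counted and 28 (48.3%) detected, beside the 36.0% and 20.0% of such members. These classes are alike among annotated hairpins only, since the rest of the genome was not searched. They also rest on whole hairpins, with the mature part not scored apart. TGTGTG or ACACAC occurred in 18.6% of the hairpins there, against 97.5% of members. Its highest member Mir127 was at 608 and 388 CPM. The range of Mir127 overlapped that of Mir467d, which was the higher in each library, at 671 and 550 CPM. In the Sfmbt2 cluster Mir467d took 68.4% of the counts on average, and the other 118 members held 0.0297% and 0.0265% of sense counts. The difference between the clusters was not tested.

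Summed over its members the cluster was 1.09-fold lower in replicate 2 after TMM scaling, and single members went both ways. CPM and shares of sense counts are not TMM-scaled, so folds read from them differ. Differences were tested with a two-sided exact binomial test on the reads, which compares these libraries and covers counting error only. Of the 8 members with a sum of at least 10 counts, 3 were called, beside 187 of 412 tested genes (45.4%). The called members were 2 higher in replicate 1 and 1 higher in replicate 2, where 22.8% and 22.6% of all tested genes were called in those directions.

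Mir467c was 1.78-fold higher in replicate 1, with a log2 ratio of -0.81 for replicate 2 over replicate 1 after TMM scaling (95% exact interval -1.13 to -0.53, adjusted p = 9.56e-08, exact binomial test). Mir467d was 1.12-fold higher in replicate 1, at a log2 ratio of -0.17 (-0.24 to -0.09, adjusted p = 7.61e-05, exact binomial test). Mir467e went the other way and was 1.20-fold higher in replicate 2, at 0.26 (0.07 to 0.45, adjusted p = 0.0150, exact binomial test), a call that was lost with total counts as library sizes, where the adjusted p was 0.245. The sister hairpins Mir467c and Mir467e, which share 48 bases, were thus called in opposite directions under TMM scaling.

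**Figure D4:**
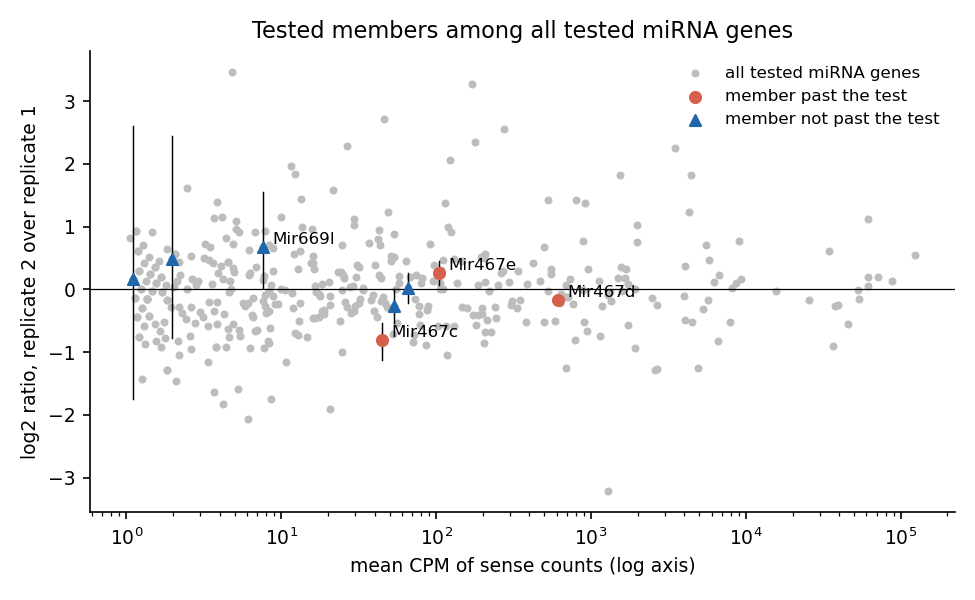
Log2 ratio of replicate 2 over replicate 1 against mean CPM (log axis) for all 412 tested miRNA genes (grey), with the 8 tested members as red circles where called and blue triangles where not. Vertical lines are 95% exact counting intervals, which lack the 1 CPM added to the ratios. Mir467c lies at -0.81, Mir467d at -0.17 and Mir467e at 0.26, within the range of the other genes.

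The other 5 tested members did not pass the test. Mir669c had a log2 ratio of 0.02, which was -0.10 with total counts as library sizes. Mir669o was at -0.27 (adjusted p = 0.0850, exact binomial test) and Mir669l at 0.68 (adjusted p = 0.0829). Mir669e and Mir669h had wide intervals that include 0, from -0.78 to 2.44 and from -1.75 to 2.60.

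The median log2 ratio of the 8 tested members was 0.09, beside -0.01 for all 412 tested genes. Summed over the 119 members the log2 ratio after TMM scaling was -0.13 (95% exact counting interval -0.19 to -0.06), and without Mir467d it was -0.04 (-0.15 to 0.08). With total counts as library sizes the summed ratio was -0.25.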

How the data were processed

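Small RNA of 2 heart libraries was measured by microRNA-seq. The deposited tables hold raw counts per miRNA gene with no normalization, on mm10 with annotation M21 per the file headers of the accompanying descriptions. Aligner and settings: not given in the sources used here. Column 3, with the larger strand sum, was read as sense. Summary lines, 64.1% and 64.4% of reads, stayed out of library sizes. CPM is the sense count scaled to a library total of 1000000.

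TMM factors came from edgeR 4.0.16 and alternative size factors from DESeq2 1.42.0. Genes with a sum of at least 10 were tested by an exact binomial test (scipy 1.17.1) with Benjamini-Hochberg adjustment over all tested genes at 0.05. Log2 ratios of single genes have 1 CPM added to each level, while their exact intervals and the folds given have none. With a single group, edgeR's quasi-likelihood test could not be fitted. Reads have no molecular identifiers in the sources used here.

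Hairpin windows of 20 bases were compared among the 2202 annotated hairpins of GENCODE M21, except between hairpins that overlap in position. The rest of the genome was not searched. Members, lists and tests were chosen with earlier results of these data known. Named were the 12 members of highest mean CPM, called members, members with opposite-strand counts and same-named hairpins elsewhere. Other members are named as examples of sequence groups.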

Additional observations from a re-analysis of the deposited data

How the results depend on the processing

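Limits: a hairpin at 0 counts may still give reads that align to several places, since those were given to no gene, and uniqueness was judged among annotated hairpins only. The number of detected members was 5 to 8 with a minimum of 50, 5 or 1 counts or in the column that ignores strand, and 6 to 7 when a library was left out. The cluster share, 0.0892% in the main setting, was 0.117% in the column that ignores strand, 0.0319% of all reads of the table, and 0.0815% to 0.0968% when a library was left out. The number of members with no window of their own was 54 with windows of 18, 20 and 22 bases. Total counts as library sizes moved the median of detected genes by -0.12 on the log2 scale and changed the split of calls over all genes from 94 higher in replicate 1 and 93 in replicate 2 to 120 and 79. Under it 3 members were called higher in replicate 1 and 0 in replicate 2, Mir669o gained a call (adjusted p = 0.00852, exact binomial test), Mir467e lost its call, Mir669c changed direction to -0.10, and the summed log2 ratio was -0.25, or -0.16 without Mir467d. With DESeq2 size factors, other count minimums or the column that ignores strand, 3 members were called each time, 2 higher in replicate 1 and 1 in replicate 2. Leaving out Mir467d and dividing by hairpin length were chosen after seeing the data. A library cannot be left out of the test between libraries.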
